A study of Homo sapiens with 10 samples.

Results

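The genes followed here serve lipid handling in enterocytes: the fatty acid binding proteins FABP1 and FABP2, the acyl-CoA synthetases ACSL3 and ACSL5, the carnitine palmitoyltransferase CPT1A, the triacylglycerol-forming acyltransferases MOGAT2 and DGAT1, the lipid droplet coat protein PLIN2 and the secreted lipase inhibitor ANGPTL4. The 9 genes were chosen by symbol from the 58684 symbols in the tables, and 7 of them were expressed highly enough to be tested, together with 11630 genes in all. Caco-2 is an established human colon carcinoma line that takes on features of enterocytes. All cells carried dCas9-KRAB, a catalytically dead Cas9 fused to a repressor domain, and came from puromycin-selected stable clones. The cells were then infected with a lentivirus carrying an empty guide plasmid (gCtl, 5 libraries) or a guide against the long non-coding RNA LHFPL3-AS2, named LHFPL3-AS2_g1 (g1, 3 libraries) and LHFPL3-AS2_g2 (g2, 2 libraries). Nothing in the labels says that libraries of a group came from separate infections or cultures, so p-values measure the spread between these libraries, which may be technical. Replicate numbers are given in the order of the samples and only name a library.

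In the enterocyte, fatty acids that cross the brush border are held in the cytosol by FABPs, joined to coenzyme A by acyl-CoA synthetases and built into triacylglycerol by monoacylglycerol and diacylglycerol acyltransferases, or passed into mitochondria through the carnitine shuttle that CPT1A opens. Triacylglycerol leaves the cell in chylomicrons or stays in cytosolic droplets coated by perilipins such as PLIN2. Several of these genes are known targets of the PPAR nuclear receptors, which bind fatty acids. None of the 9 is itself an enzyme of ketone body synthesis.

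The libraries held 3838803 to 8730468 estimated counts. The targeted RNA, LHFPL3-AS2, was read at 0.840 to 3.73 RPM (reads per 1000000 counted) in gCtl, at 2.03 to 3.95 RPM in g1 and at 2.16 to 6.01 RPM in g2, on 4.39 to 44.0 counts per library. The libraries labelled g1 and g2 thus did not read lower than gCtl, and no difference was shown (p = 0.190 for 5 against 5 libraries, by an exact permutation test, two-sided, of log2(RPM + 1)). On so few counts, the libraries are a weak test of the knockdown. The paper reports, by qPCR, less LHFPL3-AS2 with each of the guides than in gCtl. Every direction below is between libraries as labelled. Of 13 markers of intestinal epithelium, 9 passed the level filter, with a summed level of 3272 to 3559 CPM in gCtl, 3620 to 4447 in g1 and 2649 to 2771 in g2. CPM stands for counts per 1000000 after scaling by the trimmed mean of M values (TMM). EPCAM, CDX2 and VIL1, a protein of microvilli, were among them, and VIL1 read 121 to 205 CPM. The brush border enzymes ANPEP and ALPI stayed at or below 1.25 CPM, and SI (sucrase-isomaltase) stood at 0 to 0.349 CPM in gCtl, 1.27 to 3.04 in g1 and 1.02 to 1.79 in g2. APOB, of chylomicrons, was called higher with g1 (log2 fold change 0.78) and lower with g2 (-0.84), and KRT20 was called higher (1.91) and KRT18 lower (-0.78) with g2. PLIN1, a defining adipocyte protein, had no count in any library.

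Stretches before the annotated starts of PLIN2 and CPT1A, the members called with 1 guide, and of FABP1 are shown for reference. They differ in base composition. The stretches come from RefSeq (GRCh38.p14), run 5′ to 3′ on the minus strand and hold only bases that no exon of the gene covers in GENCODE v29, which uses the same assembly. Each was cut from the 250 bases before the start of the gene in RefSeq. The 54 (FABP1), 84 (PLIN2) and 133 (CPT1A) bases nearest that start were left out and not searched. The stretches thus show at most a part of each promoter. Those of FABP1 and CPT1A end at the annotated start of the gene in GENCODE. Whether the CPT1A transcript that held 98.8% of the counts begins at that start was not checked. The PLIN2 stretch precedes the start in RefSeq and is intronic in GENCODE, where PLIN2 spans chr9:19108375-19149290. Capitals mark matches to 5 motifs, searched on both strands, and no match overlapped another. The nuclear receptor half-site was searched for as AGGTCA. The half-site of HNF1, a factor of liver and gut, was GTTAAT. The site of the intestinal CDX factors was TTTATG. The TATA box, found in some core promoters, was TATAAA. The GC box, usual in promoters rich in G and C, was GGGCGG.
FABP1, chr2:88128117-88128312: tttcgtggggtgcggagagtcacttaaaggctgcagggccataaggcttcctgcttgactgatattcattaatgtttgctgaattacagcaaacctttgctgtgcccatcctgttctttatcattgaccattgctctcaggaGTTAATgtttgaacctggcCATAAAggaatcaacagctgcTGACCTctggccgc
PLIN2, chr9:19127577-19127742: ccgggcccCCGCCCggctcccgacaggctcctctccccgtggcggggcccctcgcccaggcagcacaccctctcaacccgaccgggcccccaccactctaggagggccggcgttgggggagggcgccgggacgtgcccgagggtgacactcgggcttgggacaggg
CPT1A, chr11:68844411-68844527: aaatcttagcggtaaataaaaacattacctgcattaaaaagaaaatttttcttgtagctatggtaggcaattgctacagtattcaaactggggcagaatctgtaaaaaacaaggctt

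The FABP1 stretch of 196 bases held 1 match each to the nuclear receptor half-site, the HNF1 half-site and the CDX site. Among 35116 RefSeq promoters, 9.47%, 5.21% and 7.80% held these letters in the corresponding 196 bases. The PLIN2 stretch of 166 bases was 77.7% G or C and held 1 GC box, as did 28.8% of promoters in a window of that length. The CPT1A stretch of 117 bases was 32.5% G or C and held none of the 5 motifs. A match is a run of letters and not a measured binding site.

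The reads start at the 3′ end of a transcript, so neither counts nor counts per length give a sure order of levels between genes, and none is drawn here. ANGPTL4 and MOGAT2 were close to the limit of detection in all groups. The plot of member levels shows each library on the CPM scale, which is used from here on and compares libraries within a gene.

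The first question was whether the members differed between the 5 libraries labelled g1 or g2, pooled, and the 5 gCtl libraries. No member passed the call, which required an adjusted p of at most 0.05 and a change of at least 1.5-fold in edgeR's quasi-likelihood test, whereas 19.2% of all tested genes did. At an unadjusted p under 0.05 there were 2, PLIN2 and ACSL3, and neither DESeq2 nor limma called any member. The log2 fold change was above 0 for 6 of the 7 tested members, and their median was 0.30 beside 0.02 over all tested genes. The 2 guides were then compared with gCtl separately, and with each other, because a change with 1 guide can be hidden in the pooled group. Both guides were set against the same 5 gCtl libraries.

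**Figure D1:**
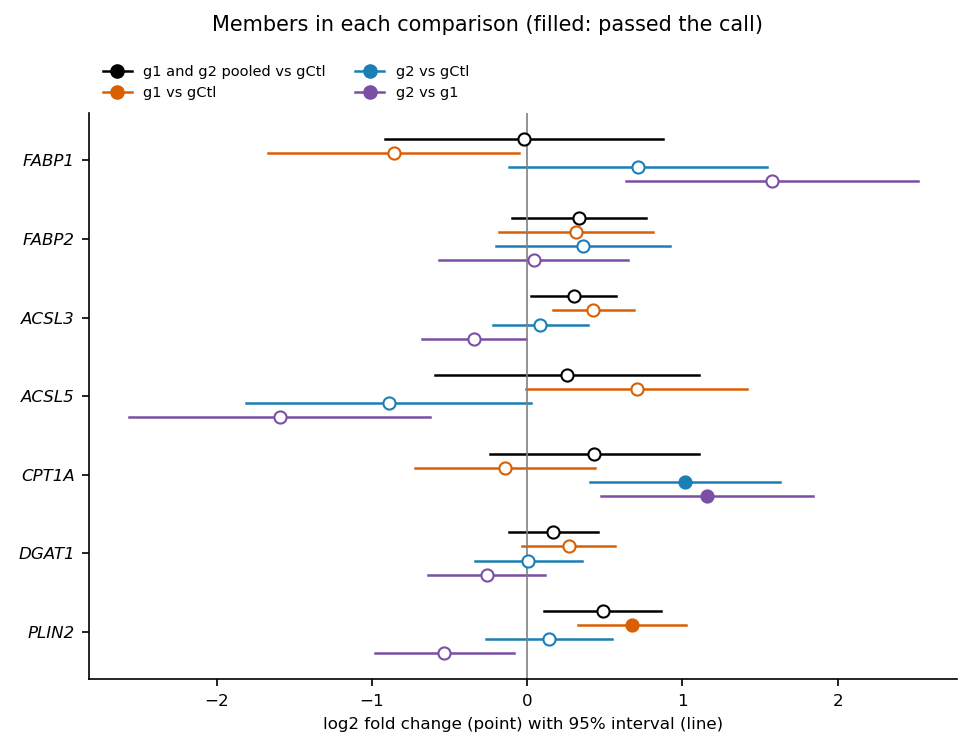
The horizontal axis gives the log2 fold change of the 7 tested members as a point and its 95% interval as a line, coloured by comparison; filled points passed the call and open points did not. PLIN2 is filled for g1 against gCtl at 0.68, and CPT1A is filled for g2 against gCtl at 1.02 and for g2 against g1 at 1.16.

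FABP1, the abundant liver-type fatty acid binding protein of the proximal intestine, varied widely between libraries. Its level was 20.3, 21.5, 14.5, 14.4 and 9.15 CPM in the gCtl libraries, 8.67, 10.6 and 7.30 CPM in g1, and 42.3 and 10.3 CPM in g2. Of the g1 libraries, 2 lay below all of gCtl and 1 within its range. Of the g2 libraries, 1 lay above all of gCtl and the other within its range. The log2 fold change was -0.86 (SE 0.38) for g1 (edgeR adjusted p = 0.123), 0.71 (SE 0.39) for g2 (edgeR adjusted p = 0.190) and -0.02 (SE 0.42) for both guides together (edgeR adjusted p = 0.979). Between the guides it was 1.57 (SE 0.44, edgeR adjusted p = 0.0516), and the fit without replicate 5 of gCtl (1.59) passed. Over the fits that each left out 1 library, the between-guide value ranged from 0.246 to 2.29, the highest without replicate 2 of g2. Without replicate 1 of g2 the pooled value was -0.81 with an edgeR adjusted p of 0.0288, which passed the call, and the g2 value turned to -0.63. Without replicate 2 of g2 the g2 value was 1.42 and passed (edgeR adjusted p = 0.0109). The fits without either g2 library also called FABP1 lower with g1, at -0.88 in both (edgeR adjusted p = 0.0271 and 0.0243), as did a fit of only the groups compared (edgeR adjusted p = 0.0275). Only 0.688% of tested genes differed at least as far between the 2 g2 libraries as FABP1 did. FABP1 reads rested almost wholly on 1 transcript, FABP1-001, which held 99.4% of its counts.

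FABP2, the intestinal fatty acid binding protein, was measured at 5.88, 6.23, 7.11, 6.48 and 9.21 CPM in gCtl, at 7.71, 9.36 and 9.39 CPM in g1, and at 9.71 and 8.50 CPM in g2. All 5 libraries labelled g1 or g2 stood above 4 of the gCtl libraries, and the highest gCtl library lay among them, so the groups overlapped. The pooled log2 fold change of 0.34 had a 95% interval from -0.10 to 0.77 and did not pass (edgeR adjusted p = 0.244). The g1 and g2 values, 0.32 and 0.36, lay within 1 SE of each other.

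ACSL3, a synthetase of the endoplasmic reticulum and of nascent lipid droplets, was found at 160, 147, 138, 147 and 136 CPM in gCtl, at 185, 203 and 198 CPM in g1, and at 166 and 142 CPM in g2. All 3 g1 libraries exceeded all gCtl libraries, which was also so, in either direction, for 26.5% of tested genes. The log2 fold change with g1 was 0.43 (SE 0.12, edgeR adjusted p = 0.0241), a 1.34-fold difference that fell short of the 1.5-fold minimum. With g2 it was 0.09 (SE 0.14, edgeR adjusted p = 0.696), and the groups overlapped. The difference between the guides was -0.34 (SE 0.16) and was not called (edgeR adjusted p = 0.228). By transcript, 71.6% of ACSL3 counts were assigned to ACSL3-001 and 22.5% to the short non-coding ACSL3-005.

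ACSL5, a synthetase of mitochondria and the endoplasmic reticulum that is abundant in the small intestine, was read at 8.70, 11.4, 11.0, 10.1 and 7.74 CPM in gCtl, at 11.3, 6.96 and 28.8 CPM in g1, and at 5.02 and 5.53 CPM in g2. Replicate 3 of g1 stood alone, and both g2 libraries were below every gCtl library, as was the case in one direction or the other for 38.0% of tested genes. The log2 fold change was 0.70 (SE 0.34) with g1 (edgeR adjusted p = 0.151) and -0.89 (SE 0.43) with g2 (edgeR adjusted p = 0.140). Between the guides it was -1.59 (SE 0.46, edgeR adjusted p = 0.0556), just outside the threshold. The between-guide value ranged from -1.93 to -0.782 over the fits that each left out 1 library. Without replicate 3 of g1, the g1 value became -0.11, and the fit without that library called ACSL5 lower in g2 than in gCtl at -0.89 (edgeR adjusted p = 0.0398), as did a fit of only the groups compared (edgeR adjusted p = 0.0383). Without replicate 2 of g1, ACSL5 was called higher with g1 at 1.04 (edgeR adjusted p = 0.0329) and lower in g2 than in g1 at -1.93 (edgeR adjusted p = 0.0185). Only 0.464% of tested genes differed at least as far between replicate 3 and the other g1 libraries. ACSL5 shares its locus with ZDHHC6 on the opposite strand (1895 counts in all), and the sources do not state whether strand was used.

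The assignment of ACSL5 counts to transcripts moved between groups. ACSL5-001 and another transcript held 51.3% and 33.3% of the gCtl counts, ACSL5-202 held 65.1% of the g1 counts and ACSL5-002 held 98.9% of the g2 counts. These transcripts are of near-equal length (3351 to 3380 bases) and the reads start at the 3′ end, so the split is an estimate and only the gene sum was tested.

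CPT1A, the outer mitochondrial membrane enzyme that commits long-chain fatty acids to oxidation, was measured at 15.4, 12.7, 13.4, 15.9 and 16.7 CPM in gCtl, at 8.83, 9.28 and 21.5 CPM in g1, and at 23.9 and 36.0 CPM in g2. Both g2 libraries exceeded all libraries of gCtl and g1, whereas the g1 libraries fell below and above the gCtl range. The g2 and g1 libraries did not overlap, in either direction, for 32.8% of tested genes. CPT1A was called higher with g2, by 2.02-fold (log2 fold change 1.02, SE 0.29, edgeR adjusted p = 0.0176), beside 10.7% of tested genes called higher and 23.7% called in either direction. With g1 the log2 fold change was -0.14 (SE 0.27, edgeR adjusted p = 0.758).

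The difference between the guides was tested directly for CPT1A. It was higher in g2 than in g1 by 2.23-fold (log2 fold change 1.16, SE 0.32, edgeR adjusted p = 0.0486), the only member called among 7, beside 4.99% of all tested genes. This call held in 3 of 10 fits that each left out 1 library. It was lost without replicate 1, 2, 3 or 4 of gCtl (1.16 in each fit), without replicate 1 or 2 of g1 (0.94 and 0.97) and without replicate 2 of g2 (0.84), at edgeR adjusted p-values from 0.0607 to 0.239. It was lost too with no filter, on protein-coding transcripts alone and in a fit of only the groups compared (edgeR adjusted p = 0.0586, 0.0786 and 0.158). The call against gCtl held in 9 of 10 and was lost without replicate 2 of g2, when the log2 fold change was 0.69 (edgeR adjusted p = 0.227). As much as 98.8% of the CPT1A counts belonged to a single coding transcript, CPT1A-006. Replicate 3 of g1, in which CPT1A and ACSL5 were both the highest of the g1 libraries, was also the deepest library.

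Triacylglycerol synthesis was represented by DGAT1 and MOGAT2. DGAT1, which adds the last acyl chain, lay at 86.5, 87.3, 82.5, 82.3 and 95.7 CPM in gCtl, at 123, 107 and 84.7 CPM in g1, and at 80.1 and 94.3 CPM in g2. These ranges overlapped. Its pooled log2 fold change of 0.17 had a 95% interval from -0.12 to 0.46 (edgeR adjusted p = 0.384), and with g2 it was 0.01 (SE 0.16), the smallest of the members with that guide. DGAT1 overlaps HSF1 on the opposite strand (1192 counts in all), and reads of the overlap may not be separated. MOGAT2, the intestinal monoacylglycerol acyltransferase, was counted 4 times in gCtl and 3 times in g1 and g2, and 5 of these 7 counts lay on a transcript not annotated as coding. Its level over gCtl was 0.165 RPM, with a 95% Poisson interval from 0.0449 to 0.422, so no difference was detectable at this depth.

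PLIN2, the perilipin that coats cytosolic droplets, was found at 62.8, 58.3, 59.0, 60.2 and 84.2 CPM in gCtl, at 127, 82.7 and 101 CPM in g1, and at 64.8 and 78.5 CPM in g2. Replicates 1 and 3 of g1 exceeded the whole gCtl group, and replicate 2 lay just under its highest library. PLIN2 was called higher with g1, by 1.60-fold (log2 fold change 0.68, SE 0.16, edgeR adjusted p = 0.00969), beside 6.81% of tested genes called higher. With g2 the log2 fold change was 0.14 (SE 0.19, edgeR adjusted p = 0.613). The difference between the guides was -0.53 (SE 0.21) and did not pass (edgeR adjusted p = 0.160), so the PLIN2 change is not shown to differ between them.

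The pooled value for PLIN2 missed the threshold (log2 fold change 0.49, SE 0.18, edgeR adjusted p = 0.0569). Without replicate 5 of gCtl, the library with the highest PLIN2 of its group, it was 0.59 (edgeR adjusted p = 0.0255) and passed. The call with g1 held in 9 of 10 fits that left out a library and was lost without replicate 1 of g1, at 0.51 (edgeR adjusted p = 0.0715). Transcript PLIN2-007 held 94.4% of its counts.

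ANGPTL4, a PPAR target whose product inhibits lipoprotein lipase, was near the limit of detection, with 13 counts over gCtl, 10 over g1 and 11 over g2. The corresponding levels were 0.535, 0.523 and 0.817 RPM, with 95% Poisson intervals from 0.285 to 0.916, from 0.251 to 0.961 and from 0.408 to 1.46. The intervals, which cover counting error only, overlapped throughout. In a fit with no level filter the pooled log2 fold change was 0.39 (SE 0.66, edgeR adjusted p = 0.763).

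The members sit within a larger set of lipid genes, for which 12 lists with 142 genes were drawn up by role. Of the 109 that were tested, 12 were called higher and 14 lower in the g1 and g2 libraries together, beside 8.12% and 11.0% of all tested genes. With g1 alone the counts were 14 and 12, beside 6.81% and 9.97% of all tested genes, and with g2 alone 12 and 15, beside 10.7% and 13.0%. Between the guides 1 was higher and 4 were lower in g2, beside 1.56% and 3.42% of all tested genes. There were 15 genes called with both guides, 7 higher and 8 lower with each. Both comparisons used the same gCtl libraries, and the share of all tested genes called with both was not computed. The count of 15 is therefore not a result about lipid genes. Scaling by library totals in place of TMM shifted the split, to 10 higher and 20 lower for the pooled comparison and to 8 higher and 23 lower with g2. Of the genes named below with a pooled call, FFAR4, ABHD6, LMF1 and FURIN were not called with g1. ACOT8, ECI2, OXCT1, GPAT3, HILPDA and RXRB were not called with g2. None of these was called between the guides.

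**Figure D2:**
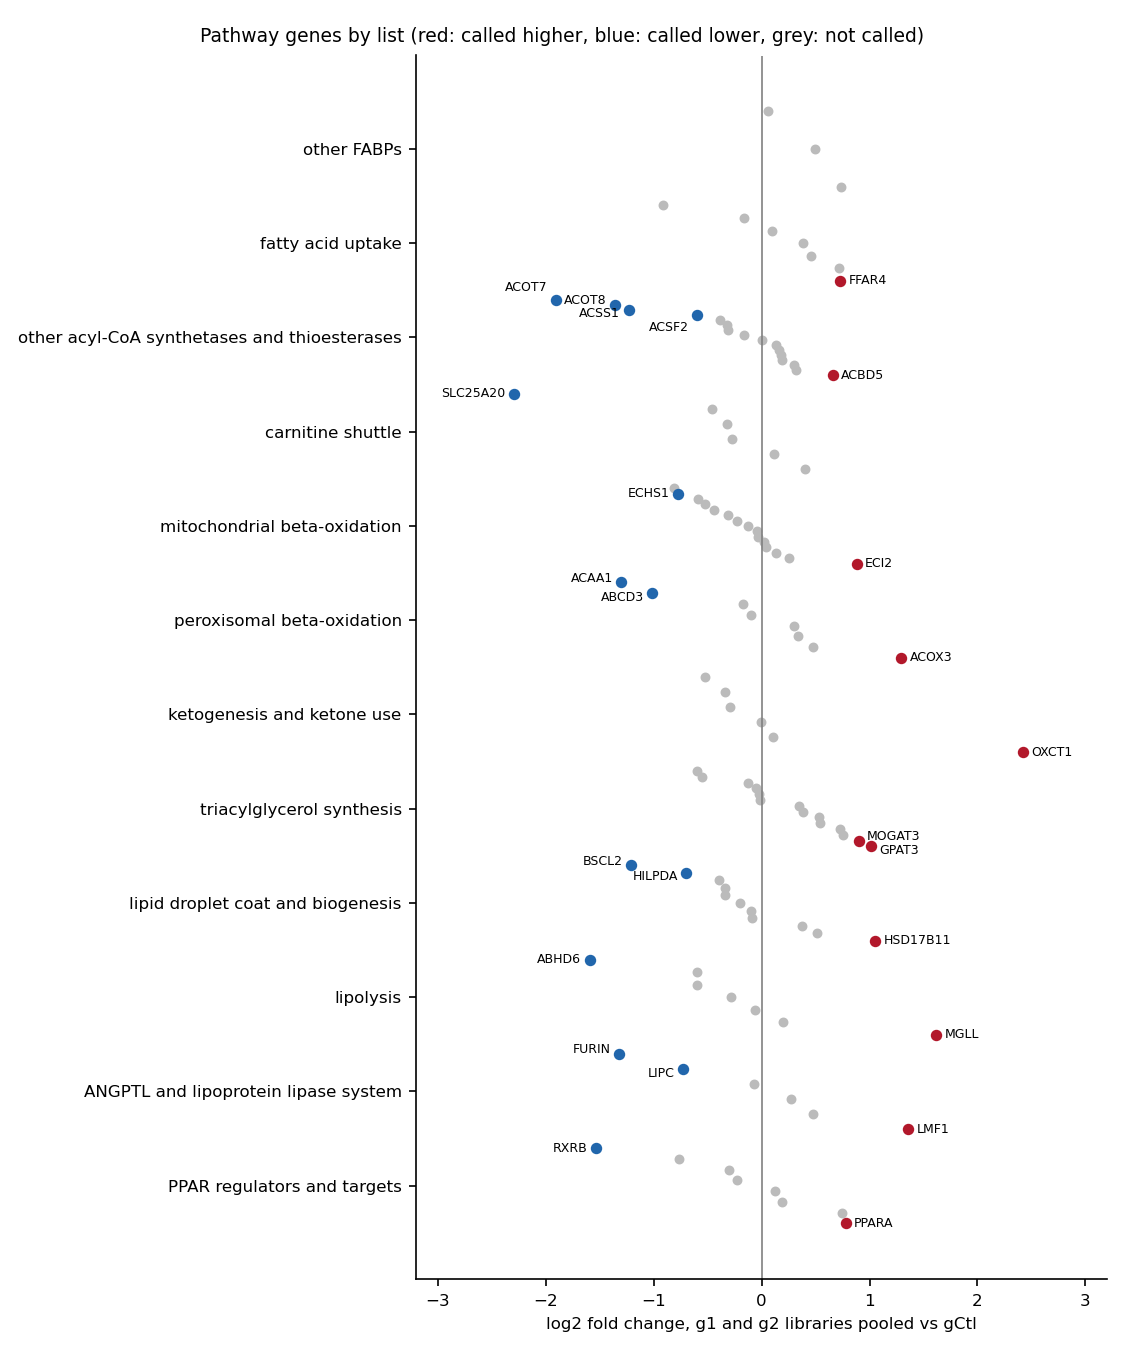
The horizontal axis gives the log2 fold change of the g1 and g2 libraries, pooled, against gCtl for 107 of the 109 tested pathway genes, grouped by list on the vertical axis; red points were called higher, blue points lower and grey points were not called. SLC25A20 lies farthest to the left at -2.29, and OXCT1 farthest to the right at 2.42.

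Among the genes of fatty acid binding and uptake, none of the 3 other tested FABPs was called, beside 19.2% of all tested genes. Their median was 0.49 on the log2 scale. Of 7 tested uptake genes 1 was called, beside 19.2% of all tested genes. It was the fatty acid receptor FFAR4, which was not called with g1 alone (0.36, edgeR adjusted p = 0.267). FFAR4 read 69.3 CPM in replicate 2 of g2 against 26.5 to 33.6 CPM in the other g1 and g2 libraries. In the pooled comparison FFAR4 was called higher at 0.73 (SE 0.24, edgeR adjusted p = 0.0389). That call was lost without replicate 1, 2, 3 or 4 of gCtl (0.67 to 0.72) and without replicate 2 of g2 (0.40), and also with library totals, no filter, protein-coding transcripts alone or limma (edgeR or limma adjusted p from 0.0570 to 0.0755). The transporter SLC27A4 gave 0.72 (SE 0.29, edgeR adjusted p = 0.0833), or 0.92 without replicate 1 of g2 (edgeR adjusted p = 0.00445). It was called higher with g1, at 0.95 (edgeR adjusted p = 0.0301), a call lost on protein-coding transcripts alone (edgeR adjusted p = 0.0562) and in 6 of 10 fits, those without replicate 1, 2, 3 or 4 of gCtl or replicate 2 or 3 of g1 (0.84 to 0.99). The difference between the guides was not called for SLC27A4 (edgeR adjusted p = 0.308). The scavenger receptor CD36 stayed at or below 5.75 CPM and gave -0.16 (SE 0.61, edgeR adjusted p = 0.873).

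Of 16 other tested synthetases, thioesterases and acyl-CoA binding proteins, 4 were called lower and 1 higher, beside 11.0% and 8.12% of all tested genes. The acyl-CoA thioesterase ACOT7 fell from 44.5 ± 7.83 CPM in gCtl (SD, n = 5) to 11.95 ± 5.22 CPM (SD, n = 5), a log2 fold change of -1.91 (SE 0.26, edgeR adjusted p = 0.000237). Its gCtl libraries did not overlap the others, as for 15.4% of tested genes in one direction or the other. The peroxisomal thioesterase ACOT8 (-1.36, SE 0.32) and the mitochondrial acetyl-CoA synthetase ACSS1 (-1.23, SE 0.22) were lower too (edgeR adjusted p = 0.00764 and 0.00135). ACOT8 was not called with g2 (-0.96, edgeR adjusted p = 0.0838). ACBD5, a peroxisomal acyl-CoA binding protein, was higher at 0.66 (SE 0.17, edgeR adjusted p = 0.0138), a call lost without replicate 2 of gCtl or replicate 3 of g1 (0.57 and 0.56), or with library totals or limma (0.57 to 0.58), all below 1.5-fold.

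Downstream of CPT1A in the carnitine shuttle, the carnitine-acylcarnitine translocase SLC25A20 was read at 3.75, 3.49, 3.49, 5.53 and 2.64 CPM in gCtl, at 1.17, 1.48 and 0.61 CPM in g1, and at 0.18 and 0.44 CPM in g2. All gCtl libraries were above all others, as for 15.4% of tested genes in one direction or the other, and the pooled log2 fold change was -2.29 (SE 0.46, edgeR adjusted p = 0.00290) on 92 counts in gCtl and 23 in g1 and g2. It was the 1 gene called of 6 tested, beside 19.2% of all tested genes. CPT2, the inner membrane partner of CPT1A, gave 0.11 (SE 0.25, edgeR adjusted p = 0.776).

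Mitochondrial beta-oxidation had 15 tested genes, of which 1 was called higher and 1 lower, beside 8.12% and 11.0% of all tested genes. The median log2 fold change of the 15 was -0.13. ECHS1, the short-chain enoyl-CoA hydratase, fell from 58.9 ± 4.53 to 34.4 ± 3.79 CPM (SD, n = 5 each), or -0.78 on the log2 scale (SE 0.12, edgeR adjusted p = 0.000750). ECI2, an enoyl-CoA isomerase, was higher at 0.88 (SE 0.18, edgeR adjusted p = 0.00298), but its counts lay mainly on ECI2-010, a transcript annotated for nonsense-mediated decay that held 49.1% of the gCtl counts and 55.0% of the g1 and g2 counts. On coding transcripts alone ECI2 gave -0.48. In peroxisomal oxidation, 3 of 8 were called, beside 19.2% of all tested genes. The thiolase ACAA1 (-1.30, SE 0.25) and the half-transporter ABCD3 (-1.01, SE 0.16) were lower (edgeR adjusted p = 0.00248 and 0.000535), and the acyl-CoA oxidase ACOX3 was higher at 1.30 (SE 0.27, edgeR adjusted p = 0.00341).

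In ketone body metabolism, OXCT1, which uses ketone bodies rather than making them, rose from 17 counts over gCtl to 116 over g1 and g2, a log2 fold change of 2.42 (SE 0.68, edgeR adjusted p = 0.0183), which limma on log2(RPM + 0.1) did not call (limma adjusted p = 0.0586). Transcript OXCT1-002 held 104 of those counts, beside 3 in gCtl. With g1 OXCT1 gave 2.88 (edgeR adjusted p = 0.00521) and with g2 1.25 (edgeR adjusted p = 0.256), and the difference between the guides was not called (edgeR adjusted p = 0.224).

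Triacylglycerol synthesis beyond DGAT1 and MOGAT2 had 2 genes called higher and none lower of 14 tested, beside 8.12% and 11.0% of all tested genes. MOGAT3, another monoacylglycerol acyltransferase, stood at 20.0 ± 2.89 CPM in gCtl and 37.2 ± 11.2 CPM in g1 and g2 (SD, n = 5 each), which was 0.90 on the log2 scale (SE 0.20, edgeR adjusted p = 0.00513). GPAT3, a glycerol-3-phosphate acyltransferase, was higher at 1.01 (SE 0.29, edgeR adjusted p = 0.0195), a call lost without replicate 2 of gCtl or replicate 3 of g1 (0.89 and 0.68). GPAT3 was called with g1 at 1.19 (edgeR adjusted p = 0.0119) and not with g2, at 0.71 (edgeR adjusted p = 0.144). The difference between the guides was not called for GPAT3 (edgeR adjusted p = 0.496). DGAT2, which carries out the same step as DGAT1, was not called in the pooled comparison (-0.55, SE 0.20, edgeR adjusted p = 0.0618) and was called lower without replicate 2 of g1, at -0.75 (edgeR adjusted p = 0.0106), and on protein-coding transcripts alone, at -0.70 (edgeR adjusted p = 0.0491). limma called it too, at -0.69 and -0.70. With g2 it was called lower at -1.02 (SE 0.23, edgeR adjusted p = 0.00428), a call lost without replicate 2 of g2 (-0.78, edgeR adjusted p = 0.0723), and the difference between the guides was not called (edgeR adjusted p = 0.0942).

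Of 11 tested droplet genes, 1 was called higher and 2 lower, beside 8.12% and 11.0% of all tested genes. HSD17B11, a droplet-associated dehydrogenase, was higher at 1.05 (SE 0.20, edgeR adjusted p = 0.00193). The seipin gene BSCL2, needed for droplet formation, was lower at -1.21 (SE 0.23, edgeR adjusted p = 0.00219), but gave -0.03 on protein-coding transcripts alone (edgeR adjusted p = 0.989). HILPDA, an inhibitor of adipose triglyceride lipase, was lower at -0.70 (SE 0.22, edgeR adjusted p = 0.0308), a call lost without replicate 1, 2 or 4 of gCtl or any 1 of the g1 libraries (-0.70 to -0.60), and it gave -0.06 on protein-coding transcripts alone (edgeR adjusted p = 0.908). With g2 HILPDA was not called (-0.37, edgeR adjusted p = 0.294). PLIN3, a close relative of PLIN2, gave -0.34 (SE 0.19, edgeR adjusted p = 0.215). In lipolysis, the monoacylglycerol lipase MGLL rose from 14.9 ± 2.42 to 45.4 ± 9.22 CPM (SD, n = 5 each), with all libraries apart (log2 fold change 1.62, SE 0.17, edgeR adjusted p = 5.87e-05). ABHD6, which also cleaves monoacylglycerol, was lower at -1.59 (SE 0.41, edgeR adjusted p = 0.0119). Adipose triglyceride lipase, encoded by PNPLA2, gave 0.20 (SE 0.19, edgeR adjusted p = 0.476).

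**Figure D3:**
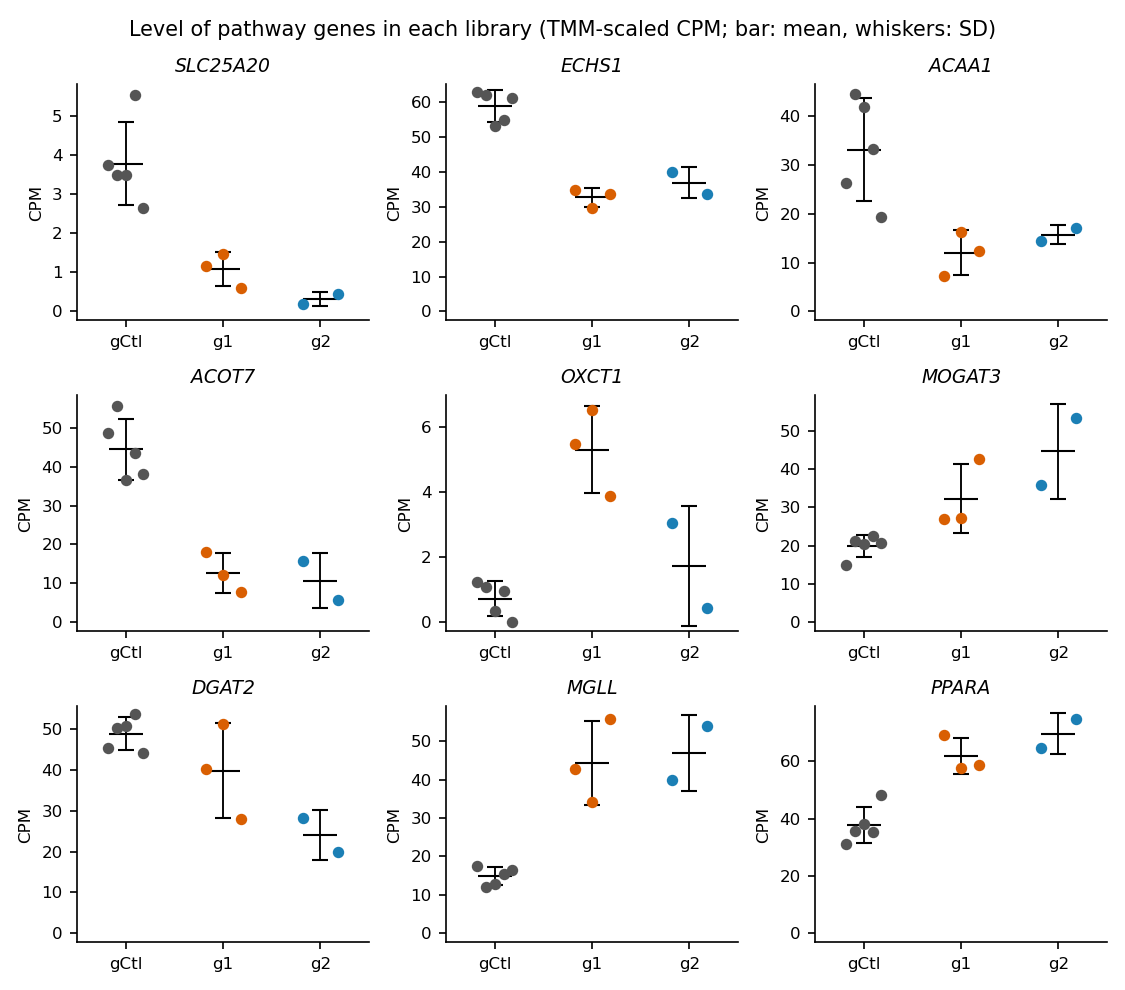
Each panel plots 1 pathway gene, with TMM-scaled CPM on a linear vertical axis and the groups gCtl (5 libraries), g1 (3) and g2 (2) on the horizontal axis; points are libraries, the bar is the mean and whiskers are the SD. MGLL, MOGAT3 and PPARA were higher and SLC25A20, ECHS1, ACAA1 and ACOT7 lower in every g1 and g2 library than in any gCtl library, whereas OXCT1 and DGAT2 overlapped. Over all tested genes, 15.4% did not overlap in this comparison, in either direction.

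Around ANGPTL4, 3 of 6 tested genes of the lipoprotein lipase system were called, beside 19.2% of all tested genes. LMF1, the lipase maturation factor, was higher at 1.36 (SE 0.42, edgeR adjusted p = 0.0277), a call lost without replicate 1, 2, 3 or 5 of gCtl (1.2 to 1.38) or replicate 2 of g2 (1.04), and with no filter, protein-coding transcripts alone or limma (adjusted p from edgeR or limma 0.0519 to 0.0888). FURIN (-1.32, SE 0.38) and the hepatic lipase gene LIPC (-0.73, SE 0.18) were lower (edgeR adjusted p = 0.0215 and 0.00898), and FURIN did not pass without replicate 3 of gCtl (-1.28, edgeR adjusted p = 0.0516). With g1 neither LMF1 (1.10, edgeR adjusted p = 0.106) nor FURIN (-1.02, edgeR adjusted p = 0.0970) was called. Of the 8 tested PPAR regulators and targets, PPARA was called higher and RXRB lower, beside 8.12% and 11.0% of all tested genes. PPARA, the receptor that drives fatty acid oxidation genes, was read at 31.3, 35.8, 38.2, 35.4 and 48.2 CPM in gCtl, at 69.1, 57.8 and 58.9 CPM in g1, and at 64.6 and 74.7 CPM in g2. The gCtl libraries did not overlap the others, as for 15.4% of tested genes in one direction or the other. The PPARA log2 fold change was 0.78 (SE 0.14, edgeR adjusted p = 0.00153), and PPARA was called with both guides. RXRB, a partner receptor, was lower at -1.53 (SE 0.42, edgeR adjusted p = 0.0168) on 63 and 27 counts, and did not pass on protein-coding transcripts alone (-1.79, edgeR adjusted p = 0.0703). With g2 RXRB was not called (-1.06, edgeR adjusted p = 0.154). PPARG gave -0.23 (SE 0.20, edgeR adjusted p = 0.437), and HNF4A, a hepatic and intestinal nuclear receptor, -0.30 (SE 0.17, edgeR adjusted p = 0.191).

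In bulk libraries, fewer cells that express a gene and less RNA per cell cannot be told apart for any member. Markers of other cell types were low or moved with the groups in part. The 4 goblet markers summed to 55.1 to 74.0 CPM in gCtl, 42.8 to 108 in g1 and 86.1 to 105 in g2, mostly through TFF3. MUC2, the main gel-forming mucin, stood at 4.80 to 6.09 CPM in g2 and at most at 0.184 CPM in gCtl and g1, and CLCA1 at 1.60 to 10.7 CPM in g2 and at most at 0.551 CPM in the others. The 3 enteroendocrine markers summed to 3.99 to 12.6 CPM in gCtl, 1.52 to 3.69 in g1 and 5.42 to 5.91 in g2, and NEUROD1 was called lower with g1 (log2 fold change -2.20, edgeR adjusted p = 0.00947). The 4 adipocyte markers summed to 2.06 to 3.10 CPM in gCtl, 3.40 to 6.29 in g1 and 2.38 to 4.96 in g2. The 5 fibroblast markers reached at most 10.8 CPM and the 3 leukocyte markers at most 27.0 CPM. MUC2 and CLCA1 were higher in g2, where CPT1A was called higher and ACSL5 was lower but not called. In g1, where PLIN2 was called higher, the enteroendocrine sum was lower and the adipocyte sum higher than in gCtl. The adipocyte sum of g2 overlapped both other groups, and ADIPOQ gave 1.34 with g1 and 1.22 with g2, neither called. The part of these markers in the member values was not tested.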

How the data were processed

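Polyadenylated RNA of Caco-2 cells was sequenced by the authors as 10 QuantSeq 3′ libraries, single-end. They pseudoaligned the reads to GENCODE v24 transcripts (GRCh38) with kallisto (version 42.5 per the labels). The authors deposited estimated counts of 199169 transcripts per library, not normalized. Counts were summed here over each gene symbol and rounded. Tests covered protein-coding genes whose RPM exceeded 3 in 20% or more of the libraries, with edgeR 4.0.16 in R 4.3.3 (TMM, glmQLFit, glmQLFTest). Benjamini-Hochberg adjustment ran over all 11630 tested genes. Genes at an adjusted p up to 0.05 that changed 1.5-fold or more were called. One fit pooled g1 and g2 against gCtl, and another had 3 groups. DESeq2 1.42.0, limma 3.58.1, other scalings, filters and left-out libraries were alternatives. Tested on simulated data of 11630 genes, 200 of them changed 3-fold, edgeR found 99.5% (pooled) and 94.5% (g2 against gCtl) of these. It also called 7 (pooled) and 9 (g2 against gCtl) unchanged genes. Every simulated gene had the same spread between libraries. These shares therefore do not tell how often smaller changes, or changes in genes with a wider spread, would be found.

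Replicates of a group differed by more than sampling noise (chi-square per degree of freedom from 4.29 to 26.2 over 14 pairs), so none was merged. With 3838803 to 8730468 counts, 3 counts equal 0.344 to 0.781 RPM. Named were the 9 members, up to 4 called genes per list by size of change, and genes fixed by symbol, except that results of some genes are not reported here. The members, lists and tests were chosen with earlier results of these data known. Promoter letters come from RefSeq, whose table matched 7 of the 9 members.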

Additional observations from a re-analysis of the deposited data

Results flagged for a closer look

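For the 7 tested members and the named pathway genes, the 5 gCtl libraries and the 5 libraries labelled g1 or g2 were each searched for a single library far from the rest, with a gap to its neighbour above 0.710 of the group's range. For 5 libraries of 1 kind, chance gives about 1 in 20 groups, and 7 of 78 groups passed. The 5 libraries labelled g1 or g2 mix 2 guides, so that share need not hold for them. FABP1 in replicate 1 of g2 was 42.28 CPM, with the other g1 and g2 libraries between 7.303 and 10.55 CPM. ACSL5 in replicate 3 of g1 was 28.78 CPM, with the others between 5.016 and 11.33 CPM. PLIN2 in replicate 5 of gCtl was 84.23 CPM, with the other gCtl libraries between 58.31 and 62.81 CPM. The same gCtl library was the highest of its group for FFAR4, at 31.63 CPM, and for CD36, at 5.746 CPM. FFAR4 in replicate 2 of g2 was 69.33 CPM, and HSD17B11 in replicate 4 of gCtl was 13.72 CPM, the lowest of its group. The members' results that rest on these libraries are given above with and without them.

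CPT1A was called higher in g2 than in g1, with a log2 fold change of 1.159 (edgeR adjusted p = 0.0486). It was higher in 2 of 2 g2 libraries than in all 3 of g1, and 32.8% of tested genes did not overlap between these groups, in either direction. As given above, the call held in only 3 of 10 fits that each left out 1 library. Both groups were measured in the same fit.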

How the results depend on the processing

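No paired analysis was possible because the labels carry no replicate numbers, and those used here follow the order of the samples. Of 301 member values under a setting other than a left-out library, 271 kept their direction and their side of the call, and 244 of 280 did when a library was left out. With g2 down to 1 library, that library was assumed to vary like the other groups. Depth limits ANGPTL4 and MOGAT2, and low genes such as SLC25A20, RXRB, LMF1 and FURIN. The cause of the changes below was not tested, apart from glmTreat, which by its construction asks for a change beyond 1.5-fold.

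The number of members called ranged from 0 to 1 (pooled), 0 to 2 (g1), 1 to 2 (g2) and 0 to 2 (g2 against g1) when a library was left out. Under glmTreat it was 0 in each comparison. Fits to only the groups compared called 2 members with g1, 2 with g2 and 0 between the guides. Between the guides, library totals, the upper quartile and limma on log2(RPM + 0.1) each called 2, DESeq2 3 and protein-coding transcripts alone 0.

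All tested genes called numbered 489 (pooled), 506 (g1), 802 (g2) and 92 (g2 against g1) under glmTreat. For g2 against g1 there were 321 on protein-coding transcripts alone and 159 with only the groups compared. Leaving out a library gave 1701 to 2431 (pooled), 1262 to 2260 (g1, lowest without replicate 3 of g1), 1506 to 3124 (g2, lowest without replicate 2 of g2) and 266 to 867 (g2 against g1).

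Pathway genes called higher and lower under glmTreat were 2 and 6 (pooled), 4 and 4 (g1), 3 and 3 (g2), 0 and 0 (g2 against g1). With g2, limma with either pseudocount gave 6 higher and 23 lower, and library totals 23 lower. Between the guides, the count higher was 0 with library totals, no filter, protein-coding transcripts alone, both limma settings and only the groups compared, 2 with filterByExpr and 3 with DESeq2, and the count lower was 1 with protein-coding transcripts alone or only the groups compared and 7 with both limma settings. Leaving out a library gave 8 to 17 higher and 12 to 18 lower (pooled), 8 to 14 and 7 to 15 (g1), 7 to 13 and 9 to 21 (g2), 0 to 4 and 2 to 4 (g2 against g1).

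With library totals the median over all tested genes, g2 against gCtl, was -0.16 on the log2 scale, beside -0.00 with TMM, and 26.7% of calls were then higher, beside 45.0%. With g2, log2 fold changes turned, with library totals and the 2 limma settings in that order, to -0.0758, -0.0752 and -0.0757 for ACSL3, to -0.00994, -0.00668 and -0.00676 for PLIN2, and to -0.149, -0.154 and -0.155 for DGAT1, which was also -0.0608 with no filter and -0.000224 with filterByExpr. FABP2 between the guides turned to -0.0662 with library totals and to -0.0575 and -0.0633 with limma. ACSL5 (pooled) was -0.137 and -0.173 with limma, and ECI2 was -0.475 on protein-coding transcripts alone.

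Leaving out a library turned the sign of FABP1 (pooled, -0.807 to 0.168; g2, -0.629 to 1.42), ACSL5 (pooled, -0.454 to 0.432; g1, -0.109 to 1.04), CPT1A with g1 (-0.726 to 0.0806), ACSL3 and DGAT1 with g2 (-0.0407 to 0.203 and -0.111 to 0.113), FABP2 between the guides (-0.0504 to 0.159), CD36 (pooled, -0.415 to 0.452) and CPT2 (pooled, -0.0623 to 0.28).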
